A study of Caenorhabditis elegans with 2 samples.

Results

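The genomic sites described here were 786 peaks of CEH-90 chromatin immunoprecipitation that ranked among the strongest of their list but lay away from the annotated starts of genes. They were selected on the signal that the authors gave each peak in a list pooled from both replicates of the study. Of the 30000 entries of that list, the 3000 with the highest signal were taken, 2644 of which were on the autosomes and 356 on the X chromosome. A site was kept where its summit, the base of highest signal, had no annotated transcript start near it, for any class of gene: none from 200 bp before to 1000 bp after it in the direction of transcription. The 786 autosomal peaks that met this rule are called distal peaks. The other 1858 strong autosomal peaks had a start in the window and are called gene-start peaks. A further 12527 autosomal peaks away from starts ranked below 3000 and are called lower-ranked peaks. The study held 1 group of 2 biological replicates of whole hermaphrodite C. elegans, strain OP210, with the genotype unc-119(ed3) III; wgIs210. This transgene makes CEH-90 with GFP and FLAG at its C terminus, and an anti-GFP antibody was used to bring down the bound chromatin. The worms were L1 larvae taken 6 hours after synchronization by bleaching and starvation. The labels do not give the promoter of the transgene or the cells that make the protein, so a peak can come from any tissue of the larva. A peak list holds no RNA, and the labelled stage could not be set against marker genes.

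CEH-90 is the product of a homeobox gene, and the homeodomain is a DNA-binding fold that in many such proteins recognises short sequences with a TAAT core. In C. elegans most regulatory sequence lies close to the gene it serves, in short intergenic spaces and in introns. Many transcripts are trans-spliced, which means that the annotated 5' end can lie downstream of the base where transcription begins. A peak away from annotated starts can therefore be an enhancer, a start that is not annotated or a site with another role, and a peak list does not tell these apart.

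A small number of short words recurred at the strongest sites. To let a reader see them, the sequence within 50 bp of the summit is shown for 3 of the 4 strongest intronic and for the 4 strongest intergenic distal peaks of chromosomes II to V, and for 3 further intronic peaks that hold one of the words. Capitals mark, on either strand, the 3 words of 6 bases that led the test of summits against flanks, of which CGCGAA had the lowest p-value, the word GGCCAC came next and then, with a higher value, CTCGGC, and 3 words of 8 bases (CTAGGCCA, GAGTACAC and TGCGTCTC) that were picked after the sequences had been seen. GGCCAC and CTAGGCCA overlap wherever CTAGGCCAC occurs. All are given 5′ to 3′ on the forward strand of the RefSeq WBcel235 genome (ce11).
F53F1.3, intron, chrV:13409219-13409319: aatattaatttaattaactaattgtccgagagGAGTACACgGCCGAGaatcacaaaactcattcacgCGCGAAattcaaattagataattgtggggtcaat
smg-3, intron, chrIV:6369649-6369749: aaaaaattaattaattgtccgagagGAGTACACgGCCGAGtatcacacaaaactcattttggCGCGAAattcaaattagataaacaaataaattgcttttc
hmt-1, intron, chrIII:11091768-11091868: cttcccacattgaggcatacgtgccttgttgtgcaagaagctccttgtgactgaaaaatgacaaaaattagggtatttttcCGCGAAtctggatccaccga
F58D12.1, intergenic, chrV:14055182-14055282: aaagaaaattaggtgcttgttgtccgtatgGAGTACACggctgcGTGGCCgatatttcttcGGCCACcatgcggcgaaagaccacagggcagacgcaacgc
vab-19, intergenic, chrII:2451155-2451255: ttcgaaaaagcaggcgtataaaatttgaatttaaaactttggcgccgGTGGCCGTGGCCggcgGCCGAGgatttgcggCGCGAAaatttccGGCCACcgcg
WBGene00268204, intergenic, chrV:2600684-2600784: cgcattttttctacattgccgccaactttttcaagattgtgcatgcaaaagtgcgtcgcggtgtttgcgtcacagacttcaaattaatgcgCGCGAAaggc
rnst-2, intergenic, chrV:1060310-1060410: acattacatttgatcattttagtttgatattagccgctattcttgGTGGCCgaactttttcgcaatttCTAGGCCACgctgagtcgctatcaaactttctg
ubc-8, intron, chrIV:2706795-2706895: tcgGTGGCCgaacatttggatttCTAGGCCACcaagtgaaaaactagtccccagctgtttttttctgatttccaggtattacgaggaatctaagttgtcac
fnip-2, intron, chrIV:2224801-2224901: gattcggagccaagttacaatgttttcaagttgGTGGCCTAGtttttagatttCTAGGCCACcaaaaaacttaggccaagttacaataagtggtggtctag
zipt-15, intron, chrIV:813482-813582: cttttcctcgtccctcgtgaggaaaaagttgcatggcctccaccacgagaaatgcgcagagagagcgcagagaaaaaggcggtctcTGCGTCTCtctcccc

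The introns of F53F1.3 and of smg-3, which encodes a factor of nonsense-mediated mRNA decay, lie on different chromosomes and hold almost the same stretch. In a local alignment of these windows, 72 of 79 columns were identical (91.1%), with 5 mismatches and 2 gap columns, and the longest exact run was 29 bases. Both copies hold GAGTACAC, CTCGGC and CGCGAA in the same order. GAGTACAC is also in the window past F58D12.1. The windows at F58D12.1, vab-19, rnst-2, ubc-8 and fnip-2 share another arrangement, in which GTGGCC is followed on the same strand by GGCCAC, its own reverse complement. That arrangement, counted after it had been seen, was in 7 of the 88 distal peaks ranked 1 to 765 (7.95%) and in 3 of the 698 ranked lower in the top 3000 (0.430%). The 7 of 88 include all the windows just named, in which the arrangement was seen. Their share is raised by that choice, and the counts carry no test. Among gene-start peaks it was in 7 of 622 (1.13%) at ranks 1 to 765 and in 4 of 1236 (0.324%) below, and among lower-ranked peaks away from starts in 27 of 12527 (0.216%).

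Signal among the distal peaks was steeply graded. It ran from 44.45 to 2040 with a median of 50.98, while that of gene-start peaks had a median of 58.42 and a maximum of 2374. A signal of 500 or more was reached by 3 distal and 86 gene-start peaks, and one of 100 or more by 30 distal and 372 gene-start peaks. These values chose the sites and are given as a description. The signal has no stated scaling, so it orders peaks within a list only. The authors also deposited a short list of 765 peaks that passed a threshold on the irreproducible discovery rate (IDR), which is low where replicates order their peaks alike, and 88 distal peaks (11.2%) were in it. They are the same 88 distal peaks as those ranked 1 to 765. Any contrast below between that bin of distal peaks and the rest is therefore also one between passing and not passing this threshold. A deposited q-value of 0.05 or less was given to 12.85% of distal peaks. Most of the set is therefore strong within the pooled list without passing either of these thresholds.

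The strongest distal peak lay in intron 3 of Y56A3A.7, a protein-coding gene on chromosome III, at chrIII:11946324-11946771, and its summit was 460 bp downstream of the nearest annotated start. Its signal was 1061 in replicate 1, 951 in replicate 2 and 2040 in the pooled list, and its rank was 3 in each of these lists. The second lay between genes on chromosome V, 569 bp past the end of F58D12.1, with 734 in replicate 1, 633 in replicate 2 and 1363 in the pooled list. The next lay 258 bp from the end of vab-19 on chromosome II, in the gap between that gene and pqn-42, which are transcribed towards each other. The vab-19 product is an ankyrin-repeat protein that holds epidermis to muscle. This site had 332 in replicate 1, 289 in replicate 2 and 622 in the pooled list. These 3 stood well apart from the rest, since the next, in intron 4 of F53F1.3, had a pooled signal of 298.

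The next sites were mostly within genes or close to them. The copy in intron 8 of smg-3 had 109 in replicate 1, 121 in replicate 2 and 233 in the pooled list. Intron 5 of W05H12.1 had a pooled signal of 211, with 67.9 in replicate 1 and 133 in replicate 2. The pseudogene WBGene00012975 on chromosome III held the peaks of ranks 189 and 193, with pooled signals of 207 and 203, and also that of rank 724. Rank 195 lay between F53E10.5 and F53E10.6 on chromosome V, 1225 bp upstream of the pseudogene WBGene00268204, with 99.2 in replicate 1, 105 in replicate 2 and 203 pooled. At rank 209, intron 11 of hmt-1, a transporter gene named for heavy metal tolerance, had 56.4 in replicate 1, 123 in replicate 2 and 187 pooled, and its summit was 808 bp past the start of sls-2.15. Intron 2 of dot-1.1, encoding a methyltransferase for histone H3, had 96.2 in replicate 1, 89.2 in replicate 2 and 185 pooled. Replicate 2 gave the higher value at hmt-1 and replicate 1 at dot-1.1, in lists that are not scaled to each other.

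**Figure D1:**
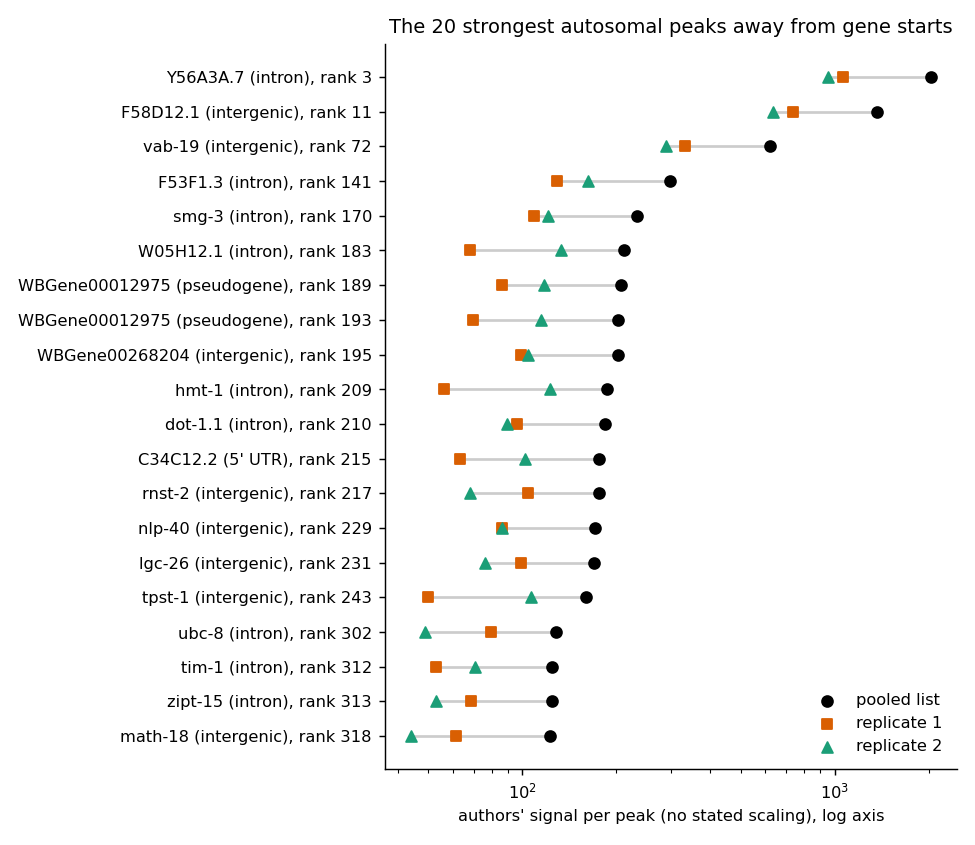
The authors' signal per peak, on a log axis, for the 20 strongest distal peaks, named by the overlapping or nearest gene with the position class and the rank in the pooled list. Circles are the pooled list, squares replicate 1 and triangles replicate 2. The sites at Y56A3A.7, F58D12.1 and vab-19 stand above all others, and below them replicate 2 is above replicate 1 at some sites and below it at others, in lists not scaled to each other.

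The others of the 20 strongest lay in a 5' UTR, in gaps between genes and in introns. A site in the 5' UTR of C34C12.2 had a pooled signal of 177. One 1235 bp upstream of rnst-2, a gene for a T2-type ribonuclease, had 104 in replicate 1, 68.1 in replicate 2 and 176 pooled. Between nlp-40, which encodes a neuropeptide of the intestine, and rcor-1, the gene of a CoREST corepressor, a site on chromosome I had 86.4 in replicate 1, 86.1 in replicate 2 and 171 pooled. Other intergenic sites lay 3039 bp upstream of the ion channel gene lgc-26, 3511 bp upstream of tpst-1, which encodes a tyrosylprotein sulfotransferase, and 2508 bp past the end of math-18. Introns of ubc-8, a gene named as a ubiquitin-conjugating enzyme, of tim-1, the gene of the Timeless protein, and of zipt-15, a zinc transporter gene, had pooled signals of 128, 125 and 125. Of the 20 strongest, 9 were intronic, 8 intergenic, 2 in the pseudogene and 1 in a 5' UTR.

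Over all distal peaks, summits were mostly in introns and between genes and seldom in coding sequence. Introns held 352 of 786 (44.8%, exact 95% interval 41.3 to 48.3%), intergenic sequence 336 (42.7%, 39.3 to 46.3%) and coding exons 60 (7.63%, 5.88 to 9.72%). A further 22 were in 3' UTRs, 11 in genes that do not encode proteins and 5 in 5' UTRs. Position was set against that of the lower-ranked peaks with Fisher's exact test, two-sided, and Benjamini-Hochberg adjustment over 11 classes and chromosomes. Intergenic summits made up 42.7% of distal and 28.9% of lower-ranked peaks (odds ratio 1.84, interval 1.58 to 2.13, Fisher's exact test, adjusted p = 1.6e-14). Coding exons held 7.63% of distal and 16.9% of lower-ranked peaks (odds ratio 0.405, interval 0.305 to 0.530, exact test, adjusted p = 6.8e-13). The intron share was 44.8% in distal and 47.8% in lower-ranked peaks, with an odds ratio of 0.885 (interval 0.764 to 1.03, exact test, adjusted p = 0.232). It passed in the list of replicate 2 alone (odds ratio 0.844, exact test, adjusted p = 0.0454) and with a start window of 500 bp upstream (0.822, exact test, adjusted p = 0.00488). Intervals and tests take peaks as separate sites and cover counting error only. The pooled list includes background entries by design, and how many of the lower-ranked peaks are background is not known. These contrasts are therefore between ranks of the list, and not between strong and weak binding sites.

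The shortage of coding exons was most marked at the top of the list. None of the 88 distal peaks ranked 1 to 765 had its summit in a coding exon. The count was 11 of 192 in the bin that ends at rank 1500 and 49 of 506 at ranks 1501 to 3000. A count of 0 of 88 allows a share of up to about 3.41%, by an approximate limit of 3 divided by 88. Intergenic summits were 38 of 88, 102 of 192 and 196 of 506 in the same bins, and intronic summits 40 of 88, 73 of 192 and 239 of 506. The 4 strongest in coding exons were at vnut-1, the gene of a vesicular nucleotide transporter, with a pooled signal of 69.0, arx-3, a subunit of the Arp2/3 actin complex, with 62.4, Y53F4B.9 with 61.0 and hpo-31 with 59.1. Those in 3' UTRs were led by nhr-119, a nuclear hormone receptor gene, with 92.7, Y71H2B.8 with 79.3, Y48G1C.8 with 78.8 and C05D11.8 with 71.0. In 5' UTRs, C34C12.2 was followed by zfp-1, the gene of a PHD-finger protein, with 77.3, T28F4.4 with 62.1 and F21C10.3 with 55.7.

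**Figure D2:**
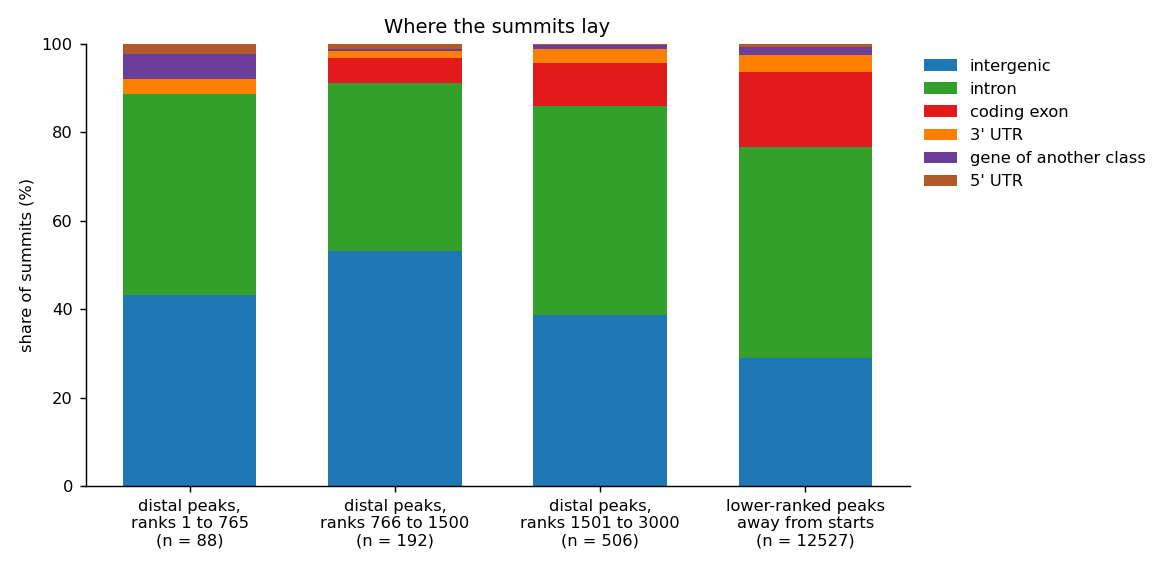
Share of summits in each position class, in percent, for distal peaks in 3 bins of rank and for the 12527 lower-ranked peaks away from starts. Coding exons are absent from the strongest bin and take 16.9% of the lower-ranked peaks, while intergenic summits take 28.9% of them.

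The introns that held distal peaks were long. Their median length was 1784 bp, against 1047 bp for lower-ranked peaks in introns, and 229 of 352 (65.1%, interval 59.8 to 70.0%) were in introns of 1000 bp or more, against 52.3% (51.0 to 53.5%). The first intron of the transcript held 139 of 352 (39.5%, 34.4 to 44.8%), against 30.8% (29.7 to 32.0%) of lower-ranked peaks. These shares are a description, and the intervals cover counting error only. The strongest in introns of 1000 bp or more were at dot-1.1 (3165 bp, signal 185), tim-1 (2000 bp, 125), zipt-15 (5562 bp, 125) and nhr-66 (3988 bp, 107), the last a nuclear hormone receptor gene. The strongest intronic sites of all were not among these, since the introns of Y56A3A.7, F53F1.3 and smg-3 measured 247, 470 and 473 bp. A long intron offers more bases outside the start windows than a short one, and its part in these shares was not tested.

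In intergenic gaps the distal peaks had no marked preference for an arrangement of genes. Genes on either side pointed the same way at 189 of 336 (56.2%, against 56.4% of lower-ranked peaks), away from each other at 123 (36.6%, against 33.7%) and towards each other at 24 (7.14%, against 9.99%). The median gap was 7065 bp, against 6978 bp. Over all classes the median distance to the nearest annotated start was 1610 bp, against 1539 bp, and the summit lay upstream of that start at 44.7% (interval 41.1 to 48.2%), against 34.6% (33.8 to 35.5%). Some 236 distal peaks (30.0%) lay within 500 bp beyond the edge of a start window, and 50 (6.36%) were more than 5000 bp from any start. The 4 farthest intergenic sites were weak. They lay 12153 bp from nhr-61 towards cdh-7 on chromosome II (signal 49.3), 11597 bp from Y67D8C.17 near the calcium pump gene mca-3 on chromosome IV (48.4), 9404 bp from tol-1, the gene of the Toll receptor (46.8), and 8835 bp from nas-27, an astacin protease gene (45.4).

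**Figure D3:**
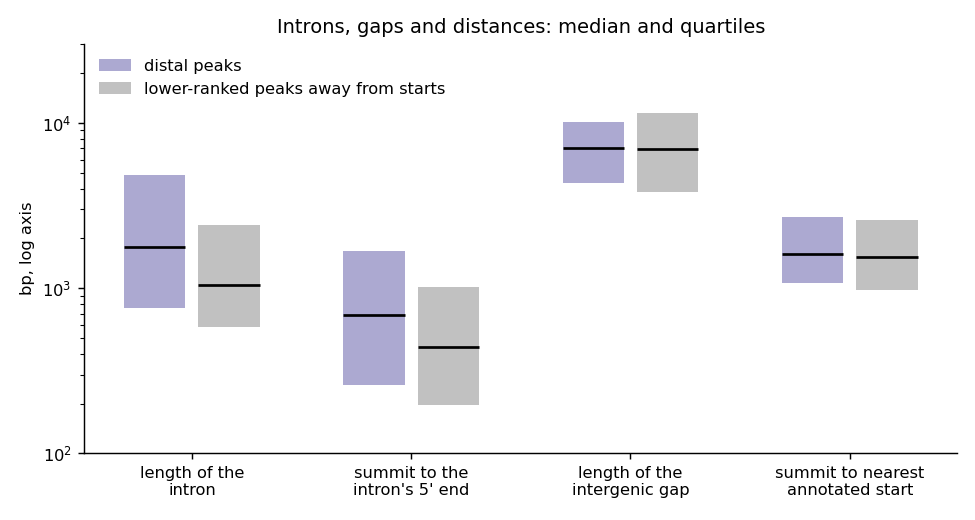
Length of the intron holding the summit, distance from the summit to the 5' end of that intron, length of the intergenic gap and distance to the nearest annotated start, in bp on a log axis. Boxes run between the quartiles with a line at the median, for distal peaks and for lower-ranked peaks away from starts. Introns of distal peaks are longer (median 1784 bp against 1047 bp), and gaps and distances to starts are alike in their medians.

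The limits of the rule cut through a continuous range. The distal peaks last admitted by signal were ranks 2996, near ins-30 (44.46), 2998, in ZC404.15 (44.45), and 3000, in yars-1 (44.45). The first of the kind left out were ranks 3002, 3004 and 3005, all with 44.44. By position, the closest admitted was 201 bp downstream of the start of gars-1, a glycyl-tRNA synthetase gene, with a signal of 59.2, and the closest left out were 200 bp downstream of Y37D8A.28 (65.3) and of lsm-6 (47.2). Another distal peak lay within 1000 bp of 79 (10.1%), and a gene-start peak within 1000 bp of 27 (3.44%).

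Distal peaks were unevenly spread over the autosomes. Chromosome III held 222 of 786 (28.2%), against 23.7% of lower-ranked peaks (odds ratio 1.27, interval 1.07 to 1.49, adjusted p = 0.0123 by Fisher's exact test), and V held 120 (15.3%), against 20.8% (odds ratio 0.684, interval 0.556 to 0.837, adjusted p = 4.7e-04). The shares on I (202), IV (135) and II (107) did not pass the test. Per megabase outside the start windows there were 23.4 on III, 19.7 on I, 16.1 on IV, 11.2 on II and 9.65 on V. The outer arms of each chromosome, taken as the 25% of its length at either end, held 64.0% of the distal peaks of III and 68.2% of those of IV, against 45.5% and 49.6% of gene-start peaks and 64.3% and 55.0% of lower-ranked peaks on the same chromosomes. On V these arms held 45.0% of distal, 34.0% of gene-start and 54.8% of lower-ranked peaks. On II the shares were 62.6%, 49.2% and 62.2%, and on I they were 55.9%, 49.4% and 57.6%. The distal share was thus near that of lower-ranked peaks on I, II and III, above it on IV and below it on V.

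How many distal peaks the replicates shared depended on the distance allowed between summits, with 45.2% in both within 50 bp and 91.0% within 200 bp. At the distance used here, a summit within 100 bp was present in replicate 1 for 648 of 786, in replicate 2 for 711 and in both for 582 (74.0%, interval 70.8 to 77.1%). Gene-start peaks were matched in both at 1477 of 1858 (79.5%, 77.6 to 81.3%). By rank, 83 of 88 distal peaks were matched in both at ranks 1 to 765, 153 of 192 in the bin to rank 1500 and 346 of 506 at ranks 1501 to 3000, and gene-start peaks 583 of 622, 359 of 449 and 535 of 787 in the same bins. The first bin of distal peaks is the set that passed the IDR threshold, which itself rests on replicate agreement. The replicate lists include background entries by design and the pooled list holds the data of both, so these shares describe the lists and are no independent check. A match among the 3000 strongest entries of both replicates was found for 184 distal peaks (23.4%). Gene-start peaks had one at 813 of 1858 (43.8%). In the same bins of rank it was found for 79 of 88, 90 of 192 and 15 of 506 distal peaks (2.96% in the last). The gene-start peaks had it at 563 of 622, 195 of 449 and 55 of 787 (6.99%). Few distal peaks of the last bin were thus among the strongest entries of both replicates. The median signal of the 582 distal peaks matched in both full lists was 20.7 in replicate 1 and 28.7 in replicate 2. For 9 distal peaks neither replicate had a summit within 100 bp. The strongest of them, of rank 442, lay 3715 bp upstream of tpst-1 (pooled signal 96.6) and had passed the IDR threshold. Its summit was 204 bp from that of another distal peak, of rank 243. Also among the 9 was the site 1851 bp upstream of hif-1, the gene of the hypoxia-inducible factor (pooled signal 67.6).

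Several genes held more than 1 distal peak. In all, 378 protein-coding genes had a summit in the body, 53 had 2 or more and 13 had 3 or more. The gene with most was aakg-1, which encodes a gamma subunit of the AMP-activated kinase. Its 5 summits, all in introns, had pooled signals of 47.2 to 55.6 and spanned chrIII:12553618-12568483. Y56A3A.7, W05H12.1, ubc-8 and zfp-1 had 4 each. In zfp-1 their signals were alike, from 61.3 to 78.1, while in Y56A3A.7 they ran from 46.1 to 2040. When summits within 1000 bp of each other were joined, the 786 formed 745 groups, of which 38 held 2 or more and 2 held 3 or more. The largest was at ubc-8 and the other at nars-1, an asparaginyl-tRNA synthetase gene.

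At ubc-8 the 4 summits lay 393, 1217, 1420 and 1643 bp downstream of its most upstream start, with pooled signals of 128, 44.5, 88.5 and 114. The first was in intron 2 and the other 3 in intron 4. The site at 393 bp had 79.4 in replicate 1 and 49.0 in replicate 2. That at 1643 bp had 56.2 in replicate 2 and no summit within 100 bp in replicate 1, and that at 1217 bp had 40.3 in replicate 1 and none in replicate 2. Another distal peak lay 1501 bp upstream of the start (signal 104, with 54.7 in replicate 1 and 49.9 in replicate 2), and a gene-start peak lay 194 bp downstream of it (71.7). Both the first and the last intronic site hold CTAGGCCA, and the upstream one holds GAGTACAC. The commonest width of a distal peak was 430 bp (779 of 786, 99.1%), so the 3 peaks of intron 4 overlap their neighbours, as does the peak at 393 bp with the gene-start peak at 194 bp, and these are not separate measurements.

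**Figure D4:**
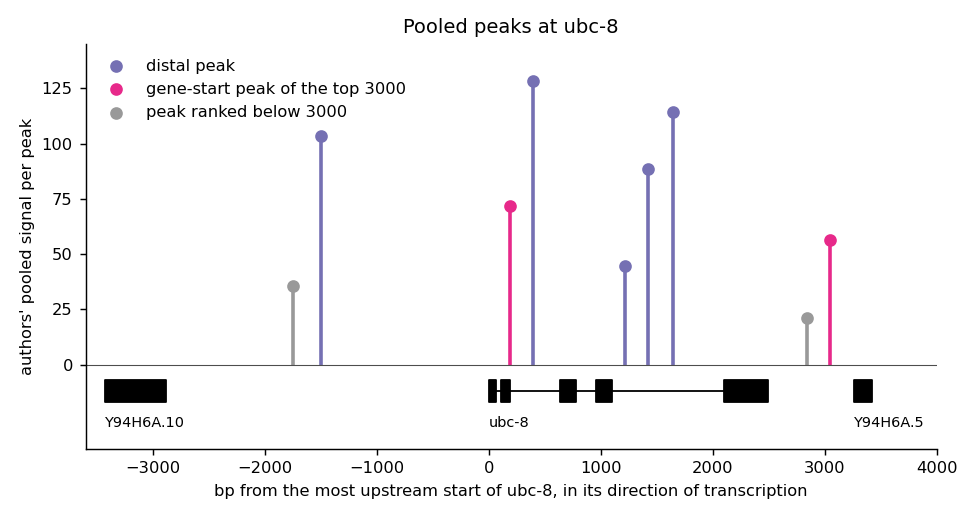
Pooled signal of every listed peak around ubc-8 by distance in bp from its most upstream start, in the direction of transcription. Boxes under the axis are exons of the longest transcript of each protein-coding gene. The intronic distal peaks at 393, 1420 and 1643 bp and the one 1501 bp upstream have a higher pooled signal than the gene-start peak at 194 bp, which overlaps the one at 393 bp.

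The strongest distal peaks had more GC at the summit than the rest, and so had the strongest gene-start peaks. Over all 786, GC was 35.5% (SD 8.81) within 50 bp of the summit and 34.8% (SD 8.001) in the flanks 200 to 250 bp away on both sides. The difference was 0.684 percentage points, higher at the summit for 409 of 786, which did not pass the exact sign test (two-sided, p = 0.269). In the list of replicate 2 alone it was -0.256 points (exact p = 0.807), and within 25 bp of the summit it was 0.967 points (exact p = 0.0113). In gene-start peaks the summit had 38.8% (SD 9.76) and the flanks 35.0% (SD 7.60). At ranks 1 to 765, summits of distal peaks had 40.9% and flanks 37.3%, and gene-start peaks had 43.6% and 35.1%. At ranks 1501 to 3000, distal peaks had 34.3% and 33.9%, and gene-start peaks 35.6% and 34.7%. By class, distal summits in coding exons had 40.4%, against 34.4% in their flanks, those in intergenic sequence 35.9% against 34.4%, and those in introns 34.3% against 35.3%. Coding sequence is in general richer in GC than introns in this genome, and its part in these values was not tested.

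No word of 6 bases passed the test of summits against flanks. Each possible word, taken on both strands, was counted as present or absent within 50 bp of the summit and in the flanks, and an exact sign test with Benjamini-Hochberg adjustment was used. The words called higher were 0 (0% of those tested) and those called lower also 0. In the same test 89 words had an unadjusted p under 0.05, 71 of them higher at summits. Unadjusted values under 0.05 also arise by chance when every possible word is tested, so the 89 carry no conclusion. In this exact test CGCGAA was at 34 summits and in the flanks of 8 (adjusted p = 0.0938), GGCCAC at 47 and in the flanks of 19 (0.0938) and CTCGGC at 43 and in the flanks of 16 (0.246). In lower-ranked peaks these words were in 2.55%, 2.11% and 2.55% of summit windows, and in distal peaks in 4.33%, 5.98% and 5.47%. Of the 48 words that hold TAAT, the core named above, 0 were called at summits in either direction. Since no word at all was called, this 0 says nothing about TAAT in particular.

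Distal and gene-start peaks differed in the words at their summits. With Fisher's exact test on presence at the summit, 33 words (1.59% of those tested) were more frequent in distal peaks and 102 (4.9%) were less frequent, after Benjamini-Hochberg adjustment. Of the 48 words that hold TAAT, 1 was among the 33 and 0 were among the 102. Of the 102, 84 (82.4%) hold the dinucleotide CG, as do 3 of the 33 (9.09%) and 29.0% of all words tested. The lowest p-values of the exact test were those of AACGCG, in 2.04% of distal and 8.56% of gene-start peaks (adjusted p = 3.5e-08), and ACGCGC, in 2.54% of distal and 9.26% of gene-start peaks (4.7e-08). CGCGAA, which led the test of summits against flanks, was among the 102, with 4.33% of distal and 7.48% of gene-start peaks (exact test, adjusted p = 0.0449). So were GAGTAC, in 2.80% of distal and 6.46% of gene-start peaks (exact test, adjusted p = 0.00369), and GTACAC, in 3.31% and 7.27% (0.0032), which are parts of GAGTACAC. GGCCAC, in 5.98% of distal and 8.29% of gene-start peaks, did not pass (0.261). When the peaks at ranks 1 to 765 were left out of both sets, 5 words were called lower and 0 higher. Among ranks 1 to 765, where 88 distal peaks face 622, 0 were called. Both are smaller sets of peaks, so the lower counts do not by themselves show a smaller difference. Gene-start peaks were stronger and richer in GC, and their part in the difference was not tested.

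The words of 8 bases shown above were in a larger share of the strongest peaks, of both kinds, than of weaker ones. CTAGGCCA was in 13 of 88 distal peaks ranked 1 to 765 (14.8%) and in 90 of 622 gene-start peaks (14.5%), and in 15 of 698 distal (2.15%) and 13 of 1236 gene-start peaks (1.05%) ranked lower in the top 3000. GAGTACAC was in 7 of 88 distal (7.95%) and 58 of 622 gene-start peaks (9.32%), and in 2 of 698 and 8 of 1236 below. TGCGTCTC was in 8 of 88 distal (9.09%) and 33 of 622 gene-start peaks (5.31%), and in 16 of 698 and 39 of 1236 below. In the flanks, CTAGGCCA was at 5 of the 88 strong distal peaks (5.68%) and 5 of the 622 strong gene-start peaks (0.804%), GAGTACAC at 1 and 5, and TGCGTCTC at 1 and 7. At the 698 weaker distal peaks the flanks held them about as often as the summits, with 14, 3 and 15 in the flanks and 15, 2 and 16 at summits, and at the 1236 weaker gene-start peaks the flanks held 7, 6 and 18. In the summit windows of lower-ranked peaks the 3 words were in 1.08%, 0.287% and 0.559%. Any of them was in 27 of 88 strong distal peaks (30.7%, interval 21.3 to 41.4%) and 166 of 622 strong gene-start peaks (26.7%, 23.3 to 30.3%). Among weaker peaks of the top 3000 the shares were 4.58% (3.16 to 6.41%) and 4.85% (3.72 to 6.20%), and 1.92% of lower-ranked peaks had one. Since the words were picked from these peaks, the counts carry no test.

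**Figure D5:**
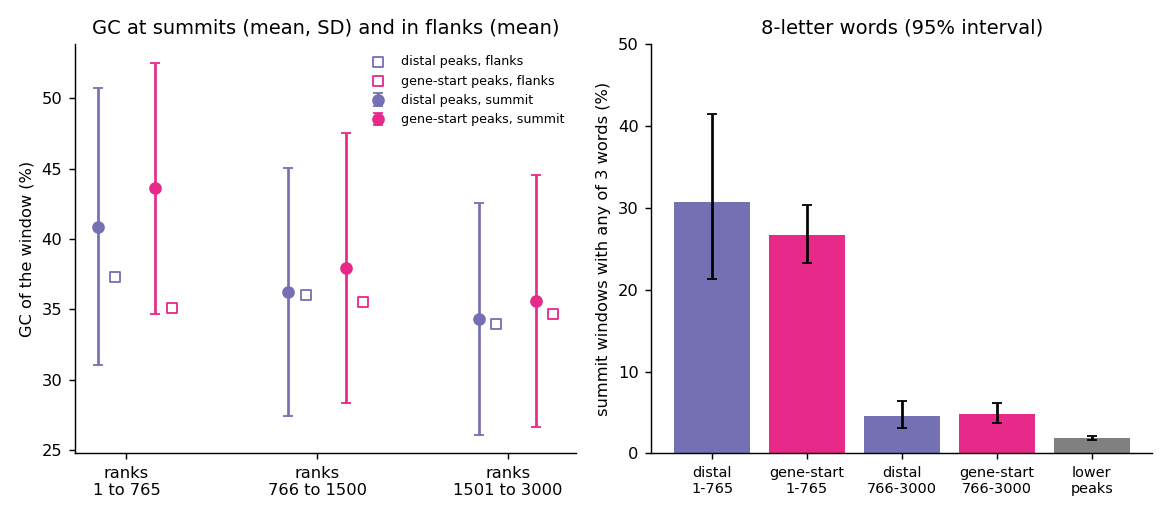
Left, GC in percent within 50 bp of the summit (circles, mean with SD) and in flanks 200 to 250 bp away (squares, mean) for distal and gene-start peaks in 3 bins of rank. Right, share of summit windows, in percent with exact 95% intervals, that hold any of 3 words of 8 bases picked after the sequences were seen: 30.7% of distal and 26.7% of gene-start peaks at ranks 1 to 765, and 1.92% of lower-ranked peaks.

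Among the 88 distal peaks ranked 1 to 765, the sites with these words lay in several position classes. CTAGGCCA was at 2 summits in introns of ubc-8, at fnip-2, Y54G2A.26, tim-1 and swt-4, a gene of the SWEET sugar transporter family, also in introns, between genes near rnst-2, itsn-1, zfr-1 and cel-mir-2211, in 3' UTRs of Y71H2B.8 and Y48G1C.8, and in the pseudogene WBGene00012975. TGCGTCTC was at zipt-15, dot-1.1, tpst-1, nlp-40, F54F12.6, F58D5.5 and T04C4.3 and in the same pseudogene. T04C4.3, in a gap shared with fnip-2, held GAGTACAC in the same window. GAGTACAC was also in an intron of set-18.

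A small share of distal summits lay in sequence with other copies in the genome. A second match of at least 90% identity over at least 80 bases was found for 33 of 786 (4.20%, interval 2.91 to 5.85%) and for 47 of 1858 gene-start peaks (2.53%, 1.86 to 3.35%; odds ratio 1.69, p = 0.0253, Fisher's exact test, two-sided). Most distal peaks were thus in sequence with no such copy. The share was larger among the strongest. In the top 765, a limit chosen after seeing the data, it was 8 of 88 distal and 14 of 622 gene-start peaks (odds ratio 4.34, Fisher's exact test, p = 0.003). The odds ratio was 2.47 in the top 1500 (Fisher's exact test, p = 0.0088) and 2.14 at 95% identity (Fisher's exact test, p = 0.0268). The similar windows at F53F1.3 and smg-3 are not among the 33, and their alignment described above had 79 columns, under the limit of 80 bases. The strongest of the 33 were upstream of lgc-26 with 13 other copies, upstream of tpst-1 with 29, in tim-1 with 5 and past math-18 with 2. The windows at tpst-1 and tim-1, and that of rank 724 in WBGene00012975 with 7, also hold words of 8 bases. The other sites named above for those words had no such copy. Reads from copies can be assigned to the wrong one, and the handling of such reads is not given in the sources used here.

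Genes of the lists of transcription factors and other families were at a small share of distal peaks, and likewise of lower-ranked ones. Their shares are set beside those of lower-ranked peaks as a description, with no test. Nuclear hormone receptor genes overlapped or neighboured 13 of 786 (1.65%, against 1.53% of lower-ranked peaks), led by nhr-66 with 107, nhr-119 with 92.7 and nhr-87 with 60.0. Homeobox genes had 3 (0.382%, against 0.575%), all close to the limit of the set, at ceh-22, an Nkx factor of the pharynx (46.9), ceh-34, a sine oculis homologue (46.1), and ttx-1, of the Otx family (44.6). Basic helix-loop-helix genes had 4 (0.509%, against 0.311%), led by sbp-1, the SREBP factor of lipid synthesis (71.5), hif-1 (67.6) and hlh-30, the TFEB factor of lysosome genes (51.0). Neuropeptide and insulin genes had 4 (0.509%, against 0.447%), led by nlp-40, nlp-15 and daf-28, and heat shock and chaperone genes had 6 (0.763%, against 0.423%), led by dnj-1, hsp-16.48 and cct-5. Collagen genes had 1, at col-55, and genes of cytosolic ribosomal proteins, proteasome subunits and histones had 0 each, against 15, 8 and 5 of the 12527 lower-ranked peaks. A count of 0 of 786 allows a share of up to about 0.382%, by the approximate limit of 3 divided by 786.

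Noncoding genes were nearest to a minority of the sites. Protein-coding genes were nearest or overlapping at 679 of 786 (86.4%, against 90.2% of lower-ranked peaks), ncRNA genes at 54 (6.87%, against 4.79%), pseudogenes at 19 (2.42%, against 2.83%), snoRNA genes at 12 (1.53%, against 0.487%), piRNA genes at 12 (1.53%, against 0.982%) and lincRNA genes at 9 (1.15%, against 0.679%). Genes of miRNA and of antisense RNA were at 2 each (0.25%), against 0.10% and 0.14% of lower-ranked peaks. The strongest at lincRNA genes were in linc-146, with 90.1, and at linc-105, which holds the summit of rank 627, with 78.1, and lies 1242 bp from that of rank 625, with 78.2. No distal peak was nearest to a tRNA, snRNA or rRNA gene, against 23, 2 and 0 lower-ranked peaks. The rule itself keeps sites within 1000 bp upstream or 200 bp downstream of the starts of such genes out of the set.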

How the data were processed

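Both samples were ChIP-seq libraries of 1 group, numbered as biological replicates in the labels, which do not describe separate cultures. The authors deposited peak lists in ce11 for replicate 1 (23796 entries), replicate 2 (30000), both pooled (30000) and an IDR threshold (765), each but the last including background per the file headers and labels. The deposited signal per peak has no stated scaling, and the deposited q-value is given as −log10. The aligner, the caller and the threshold of the IDR list were not given in the sources used here. Depth per sample is unknown, because no read counts are listed, and the lists in ce10 were not used.

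Summits were placed on Ensembl release 115 gene models (WBcel235), in the order 5' UTR, coding exon, 3' UTR, intron, gene of another class, intergenic. Coordinates are 1-based. Summits within 100 bp counted as matched. Sequence was read from the RefSeq WBcel235 genome, copies were searched with BLAST 2.17.0 (E-value at most 1e-10), and tests used SciPy 1.17.1 with statsmodels 0.14.6 after a check of the word tests on simulated data. Shares have exact Clopper-Pearson 95% intervals, which cover counting error only. The upper limits given for counts of 0 are instead approximate, taken as 3 divided by the number of peaks. Neighbouring peaks are not independent.

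Named sites were the 20 strongest, the 4 strongest of each class and of introns of 1000 bp or more, the 4 farthest from a start, those at the limits and the 3 strongest of each gene list. Of the noncoding classes, only lincRNA genes had their strongest sites named by this rule, and the others are given as counts. Hosts of 3 or more summits and the words of 8 bases were chosen after values were seen. Members, gene lists and rules were chosen with earlier results of these data known. Alternatives were the window, the number of strong peaks, each replicate left out, the summit width, the identity limit and the matching distance. The summit sequence of 1 of the strongest intronic peaks is not reported here.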

Additional observations from a re-analysis of the deposited data

How the results depend on the processing

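No paired analysis was possible because both replicates belong to 1 group. The intergenic excess and the coding exon shortage kept their direction and side of the threshold under every alternative run. A start window of 500 bp upstream gave an intron odds ratio of 0.822 (Fisher's exact test, adjusted p = 0.00488) and 3 words called at summits. One of 2000 bp left 483 distal peaks and 69 words differing from gene-start peaks. The main setting had 135, with 1.59% of the words tested higher and 4.9% lower in distal peaks. The top 1500 left 280 peaks and 32 words. The top 765, chosen after seeing the data, left 88 peaks and 0 words, and slightly longer flanks, also chosen later, again gave 0 words at summits. With 25 bp each side of the summit, the GC difference was 0.967 points (exact p = 0.0113), 1 word was called at summits and 53 differed from gene-start peaks. Without ranks 1 to 765 in both sets, 5 words differed. Several of these settings also change the number of peaks tested. Counts of called words alone therefore do not show whether the word results held or changed. With a replicate left out, the intron odds ratio was 0.844 to 0.970, passing without replicate 1 (Fisher's exact test, adjusted p = 0.0454), and the GC difference was -0.256 to 0.738 points, turning sign without replicate 1. Replicate matches were 45.2% within 50 bp, 91.0% within 200 bp and 23.4% among the top 3000 of each replicate. The cause of these shifts was not tested. Depth is unknown, the signal has no scaling, and peaks are not independent, which limits every test.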
